A study of Homo sapiens with 26 samples.

Results

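NQO1, PTGR1, MGST1 and PPP1R14C are 4 genes of the 15124 measured in 786-O cells, so named in the series text, a human clear cell renal carcinoma line known to lack working VHL, which otherwise targets the HIF-alpha proteins for destruction. They were selected on their array signals, which differed from DMSO in the same direction with each of 4 inhibitors of the transcription factor HIF-2a. Their levels with the compounds against DMSO are therefore a description here, and tests are given only for other contrasts. The arrays fell into groups called 40, 41, 76 and 77, taken as the 4 compounds, DMSO, the vehicle, Blk, taken by elimination as untreated cells, and WT8 and PRC3, with 3 arrays each, plus single arrays called pTR and pTV. 786-O sublines with an empty vector are widely called PRC3, and those with wild-type VHL put back are called WT8, which the labels do not state. The sources used here give no compound doses, no treatment times and no meaning for pTR and pTV. The labels of the single arrays add no cell line name, and none says whether replicate arrays had cultures of their own. The p-values then measure only the spread between arrays, which may be technical.

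The signals of renal epithelial markers matched the labelled cell type. All 6 were kept, with median signals over the 24 arrays in groups of 3 of 966 for PAX8, 116 for PAX2, 1057 for KRT8, 1634 for KRT18, 166 for CDH6 and 7754 for VIM, while the markers of leukocytes (PTPRC, CD14), endothelium (CDH5), hepatocytes (ALB) and fibroblasts (COL3A1) did not exceed 22.5 on any of them. The T cell marker CD3E reached 31.1, and the endothelial and platelet marker PECAM1 lay between 45.5 and 117. The 2% trimmed mean signal of an array ran from 80.1 to 95.5 before normalisation. Replicates 2 and 3 of compound 40 were deposited with all 54613 values distinct, whereas the other 24 arrays held between 5589 and 7809 distinct values. Whether those 2 columns were processed in another way is not given. Results of the 4 genes with compound 40 are given with and without them where a call changes. On WT8 replicate 3 the ACTB signal was 2.37 times as high at the 3′ end of the transcript as at the 5′ end, against at most 1.39 times on the other arrays.

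NQO1 encodes a flavoprotein that reduces quinones to hydroquinones in a single step with NADH or NADPH. PTGR1, prostaglandin reductase 1, reduces the double bond of alpha,beta-unsaturated aldehydes and ketones with NADPH and inactivates leukotriene B4. MGST1 is a membrane-bound glutathione transferase and peroxidase of the endoplasmic reticulum and the outer mitochondrial membrane. PPP1R14C is an inhibitor of protein phosphatase 1 whose potency rises when protein kinase C phosphorylates it. NQO1 and PTGR1 are textbook targets of NRF2, the transcription factor encoded by NFE2L2, which KEAP1 holds at a low level until electrophiles or oxidants modify KEAP1. NRF2 then pairs with small MAF proteins on antioxidant response elements. HIF-2a, with ARNT, binds hypoxia response elements.

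The promoters were read for the cores of both elements, since NRF2 and HIF-2a are the factors named above. The windows were those of RefSeq on GRCh38.p14, from 250 bases before to 50 bases after each annotated start, 300 bases in all, and the 4 genes had 6 of them (NQO1 1, PTGR1 1, MGST1 3, PPP1R14C 1). The antioxidant response element core TGACNNNGC, read on both strands, was found in 1 of the 3 MGST1 windows and in 13.3% of all 35116 windows. The hypoxia response element core, ACGTG or GCGTG on either strand, was found in the windows of MGST1, NQO1 and PPP1R14C and in 48.4% of all windows. The window of PTGR1 held neither. Each match is printed below 5′ to 3′ on the strand of its gene, with the core in capitals and 10 bases on each side, and CACGC is GCGTG on the other strand. These matches are letters in a window and show no binding. Elements outside the windows were not searched, so a window without a match does not show that its gene lacks the element.
MGST1 antioxidant response element core, chr12:16347135-16347163, plus strand, core from base 31 after an annotated start: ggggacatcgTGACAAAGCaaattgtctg
MGST1 hypoxia response element core, chr12:16347565-16347589, plus strand: cgggctttaaACGTGggagggctaa
NQO1 hypoxia response element core, chr16:69726545-69726569, minus strand: gtgcactacaCACGCgactcccaca
PPP1R14C hypoxia response element core, chr6:150142805-150142829, plus strand: caccccgcccCACGCccgtccttcc
PPP1R14C hypoxia response element core, chr6:150142884-150142908, plus strand: cggagactccCACGCcccgggccct

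NQO1 was higher with each compound than with DMSO. Its representative probe set, 210519_s_at, had normalised signals of 4909, 4332 and 4357 with compound 40, 5814, 5446 and 5711 with compound 41, 6152, 5413 and 5772 with compound 76 and 3307, 4537 and 4474 with compound 77, against 1774, 1813 and 1824 with DMSO. Every compound array was above every DMSO array, and the 3 DMSO arrays lay closer together than those of any compound. The fitted log2 differences from DMSO were 1.33, 1.65, 1.68 and 1.17 for compounds 40, 41, 76 and 77 (SE 0.13 each), or 2.51-fold, 3.14-fold, 3.20-fold and 2.25-fold. Against Blk, which read 1526, 1572 and 1533, the differences were 1.55, 1.87, 1.90 and 1.40. They use the compound arrays that served in the choice, so they too are a description. The other 2 probe sets of NQO1 read the same way, with log2 differences from DMSO of 1.30, 1.49, 1.54 and 0.80 for 201468_s_at and 1.82, 2.24, 2.21 and 1.50 for 201467_s_at, in the same order of compounds. Replicate 1 of compound 77 was the lowest of its group on all 3 probe sets. In RNA of whole cultures, a change in the share of cells with a transcript and a change in its amount per cell cannot be told apart.

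PTGR1 had the largest differences from DMSO of the 4 genes with compounds 41 and 76. Its probe set 231897_at read 1067, 1338 and 856.6 with compound 40, 2537, 2179 and 2626 with compound 41, 2270, 2298 and 2534 with compound 76 and 900.6, 1583 and 1450 with compound 77, against 533.5, 398.6 and 426.1 with DMSO. The compound arrays again did not overlap with DMSO, and compounds 41 and 76 lay above compounds 40 and 77 on every array. The log2 differences from DMSO were 1.25, 2.44, 2.40 and 1.50 for compounds 40, 41, 76 and 77 (SE 0.21 each), that is 2.38-fold, 5.43-fold, 5.26-fold and 2.84-fold. The other probe sets gave 1.64, 2.64, 2.67 and 1.81 (228824_s_at) and 1.14, 2.46, 2.52 and 0.98 (228825_at). Blk arrays read 516.7, 381.1 and 455.6, overlapping those of DMSO.

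MGST1 had smaller differences from DMSO than NQO1 and PTGR1. Its probe set 224918_x_at read 3256, 3585 and 3578 with compound 40, 4234, 3758 and 4119 with compound 41, 4234, 3890 and 4283 with compound 76 and 2648, 3077 and 2894 with compound 77, against 2249, 1808 and 1833 with DMSO. The lowest compound array, replicate 1 of compound 77, was still above the highest DMSO array. The log2 differences from DMSO were 0.83, 1.05, 1.08 and 0.55 for compounds 40, 41, 76 and 77 (SE 0.098 each), or 1.78-fold, 2.06-fold, 2.12-fold and 1.47-fold. Of its other kept probe sets, 231736_x_at gave 0.88, 1.13, 1.14 and 0.63, and 1565162_s_at gave 0.60, 1.24, 1.28 and 0.68. The dim probe set 239001_at had 7 of 24 arrays at the floor of 20 and read 0.64, 1.89, 1.53 and 0.25 (SE 0.42 each). The fifth, 240688_at, was at the floor on every array and was not kept.

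PPP1R14C was dim on every array and was the only 1 of the 4 genes below DMSO. Its only probe set, 226907_at, read 8.3, 36.8 and 6.0 with compound 40, 15.1, 23.4 and 9.6 with compound 41, 30.7, 32.1 and 22.3 with compound 76 and 35.0, 15.7 and 19.7 with compound 77, against 67.2, 68.8 and 79.8 with DMSO. All compound arrays lay below all DMSO arrays, and 2 arrays each of compounds 40, 41 and 77 were under the floor of 20 set before the fit. On the floored log2 scale the differences from DMSO were -1.55, -1.77, -1.36 and -1.57 for compounds 40, 41, 76 and 77 (SE 0.33 each). The floor shortens those with compounds 40, 41 and 77. Blk arrays read 70.0, 76.6 and 52.0, near those of DMSO.

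**Figure D1:**
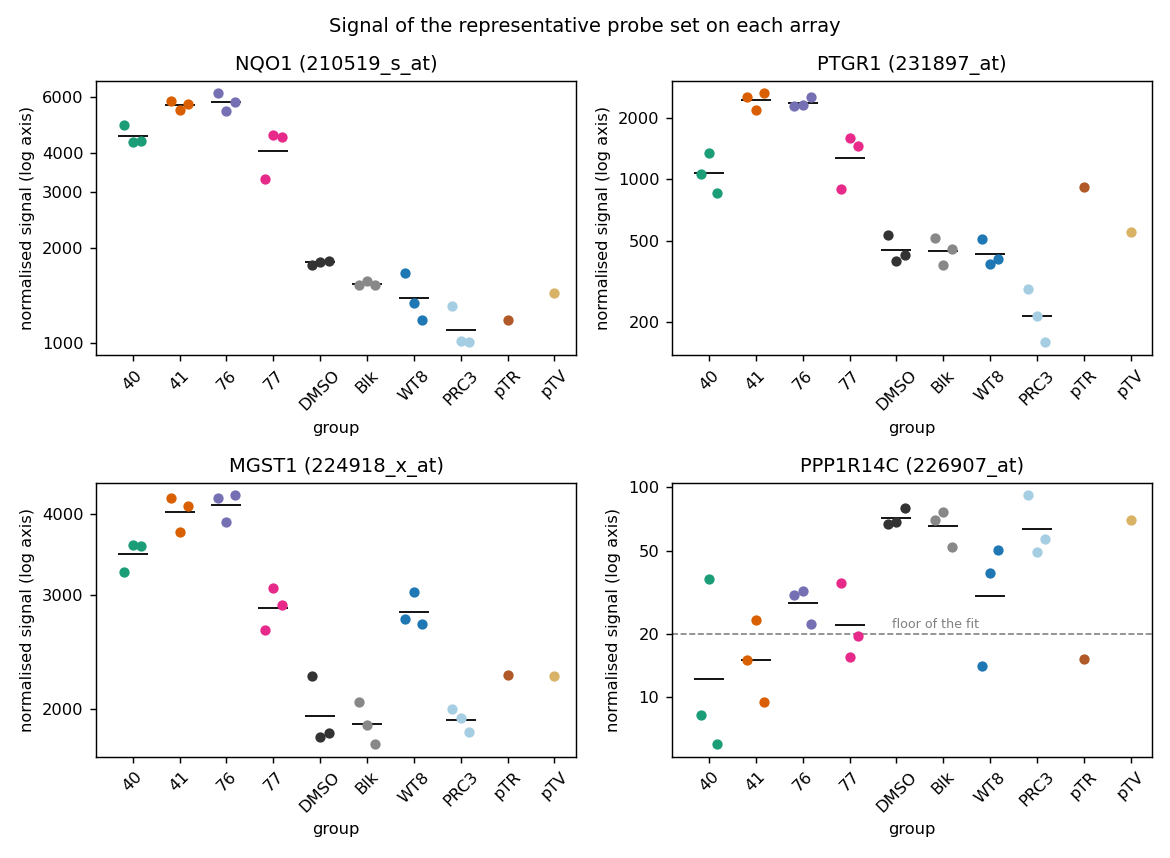
Normalised signal (log axis) of the representative probe set of each gene on each of the 26 arrays, by group, where points are arrays, horizontal bars are geometric means of 3 arrays and the dashed line is the floor of 20. In the groups 40, 41, 76 and 77 all arrays of NQO1, PTGR1 and MGST1 lie above those of DMSO and all arrays of PPP1R14C lie below them.

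Movement in the same direction with all 4 compounds was the stated basis of the choice, without a threshold. A rule with a threshold, written here to describe it, can be set beside its nearest cases. Of 15124 genes, 6 were called against DMSO in the same direction with all 4 compounds, 5 higher and 1 lower, or 0.0397% of genes. Called means a Benjamini-Hochberg adjusted p below 0.05 in limma over the 35013 probe sets kept, here only as a description of the choice. The other 2 genes were FTH1P5, a ferritin heavy chain pseudogene whose probe set may also read FTH1, and BLVRB, biliverdin reductase B. Both met this rule but were not among the 4 genes, so it describes the choice only in part. The largest of a gene's 4 adjusted p-values was 8.19e-05 for NQO1, 0.00455 for PTGR1 and 0.0130 for MGST1, with limma. PPP1R14C was the last inside, at 0.0499 with compound 77. PRAG1 at 0.0686, HRES1 at 0.0766 and CTSL at 0.0828 were the nearest outside. Separately, 0.846%, 3.34%, 1.78% and 0.179% of genes were called against DMSO with compounds 40, 41, 76 and 77. NQO1 met the rule in all 22 other fits and PTGR1 in 21 of them, all but that with 1 array of compound 40. MGST1 missed it in 6, and PPP1R14C met it in 4.

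**Figure D2:**
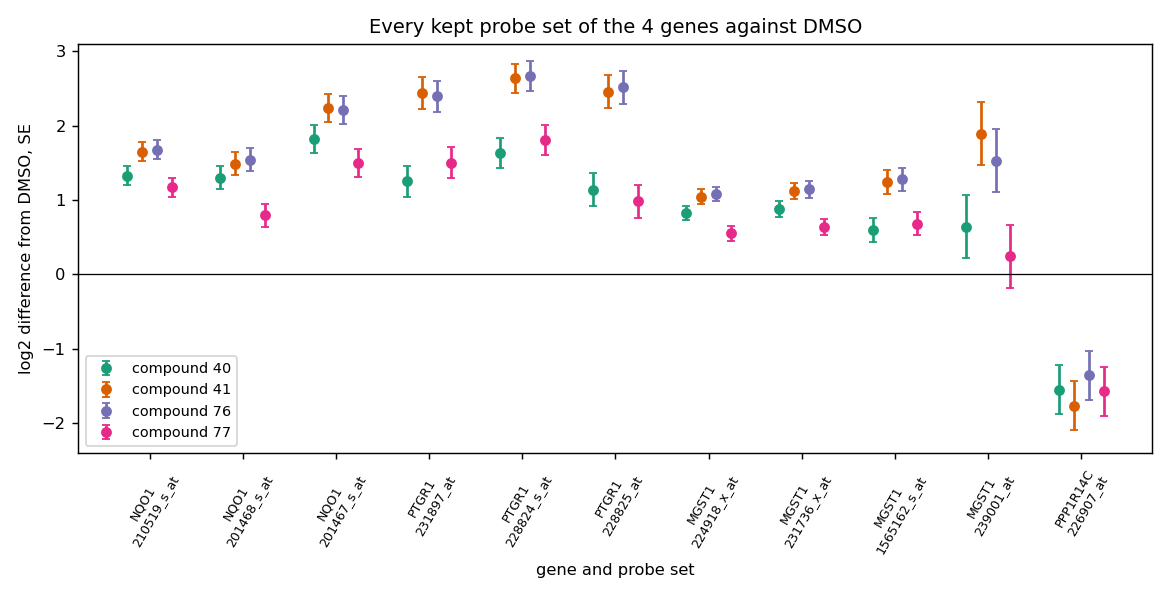
Log2 difference from DMSO (vertical axis) for each of the 11 kept probe sets of the 4 genes (horizontal axis), with 1 point per compound and bars of 1 SE from limma. The 3 probe sets each of NQO1 and PTGR1 and the 4 of MGST1 are above 0 with every compound, and that of PPP1R14C is below 0.

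WT8 against PRC3 was not among the contrasts of the choice. The arrays of both groups did enter the fit used to describe the choice, through its estimate of spread. The test is therefore not taken as fully independent of the choice. In WT8, 2 of the 4 genes, PTGR1 and MGST1, were called higher than in PRC3 and 0 lower. Of all genes, 3.27% were called higher and 2.71% lower. PTGR1 read 510.4, 384.7 and 407.7 in WT8, against 291.5, 214.0 and 159.4 in PRC3, with no overlap between the groups. The difference was 1.00 on the log2 scale (SE 0.21, 95% interval 0.57 to 1.44, limma adjusted p = 0.00470), or 2.00-fold. Its other probe sets gave 1.11 (adjusted p = 0.00123, limma) and 1.29 (adjusted p = 7.24e-04, limma), and over all probe sets 4.56% were called. MGST1 read 2755, 3038 and 2706 in WT8, against 1996, 1938 and 1839 in PRC3, again without overlap. Its log2 difference was 0.56 (SE 0.098, 95% interval 0.35 to 0.76, limma adjusted p = 9.42e-04), or 1.47-fold, and 2 of its other 3 kept probe sets were called too, at 0.66 and 0.70. Both genes stayed called in each of the 6 fits that left out 1 array of these groups, WT8 replicate 3 included. Neither was called when the 6 arrays were fitted alone (limma adjusted p = 0.205 for PTGR1 and 0.0974 for MGST1), and MGST1 was not called when arrays were scaled to 1 median (adjusted p = 0.0973, limma).

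NQO1 and PPP1R14C were not called between these sublines. NQO1 read 1673, 1341 and 1190 in WT8, against 1314, 1019 and 1008 in PRC3, so the groups overlapped. The log2 difference was 0.33 (95% interval 0.066 to 0.59, limma adjusted p = 0.171). PPP1R14C read 14.2, 39.0 and 50.4 in WT8, against 91.8, 49.2 and 56.6 in PRC3. Its log2 difference of -0.90 had an interval from -1.58 to -0.21 (limma adjusted p = 0.145), and WT8 replicate 1 was under the floor.

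PRC3 against Blk showed where the sublines stand relative to the untreated cells. PTGR1 was the only 1 of the 4 genes called, lower in PRC3, where 0.912% of genes were called lower and 0.476% higher. Its PRC3 signals, given above, were all below the Blk signals of 516.7, 381.1 and 455.6. The log2 difference was -1.06 (SE 0.21, 95% interval -1.49 to -0.62, limma adjusted p = 0.0107). Probe set 228824_s_at gave -1.51 (adjusted p = 1.13e-04, limma) and 228825_at gave -0.77 (adjusted p = 0.106, limma), where 1.03% of all probe sets were called. The PTGR1 call was lost without Blk replicate 1, without Blk replicate 3, without PRC3 replicate 3 and when the 6 arrays were fitted alone. In WT8 the PTGR1 mean was 434, beside 451 in Blk, and the arrays of those groups overlapped. For NQO1 the PRC3 arrays also lay below the Blk arrays, with a log2 difference of -0.48 (95% interval -0.74 to -0.22, limma adjusted p = 0.0678). It was called without PRC3 replicate 1 (adjusted p = 0.0238, limma). MGST1 differed by 0.020 (95% interval -0.18 to 0.22) and PPP1R14C by -0.043 (95% interval -0.73 to 0.64), neither called.

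DMSO against Blk bears on what the vehicle alone does, although the DMSO arrays also served in the choice. None of the 4 genes was called, and 0% of all genes were called by limma, with 302 genes at an unadjusted p below 0.05. NQO1 read 1774, 1813 and 1824 with DMSO and 1526, 1572 and 1533 in Blk. Its log2 difference was 0.22 (95% interval -0.037 to 0.49, limma adjusted p = 1), smaller than its difference from DMSO with any compound. PTGR1 differed by 0.0048 (95% interval -0.43 to 0.44), MGST1 by 0.042 (95% interval -0.16 to 0.25) and PPP1R14C by 0.13 (95% interval -0.55 to 0.82).

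**Figure D3:**
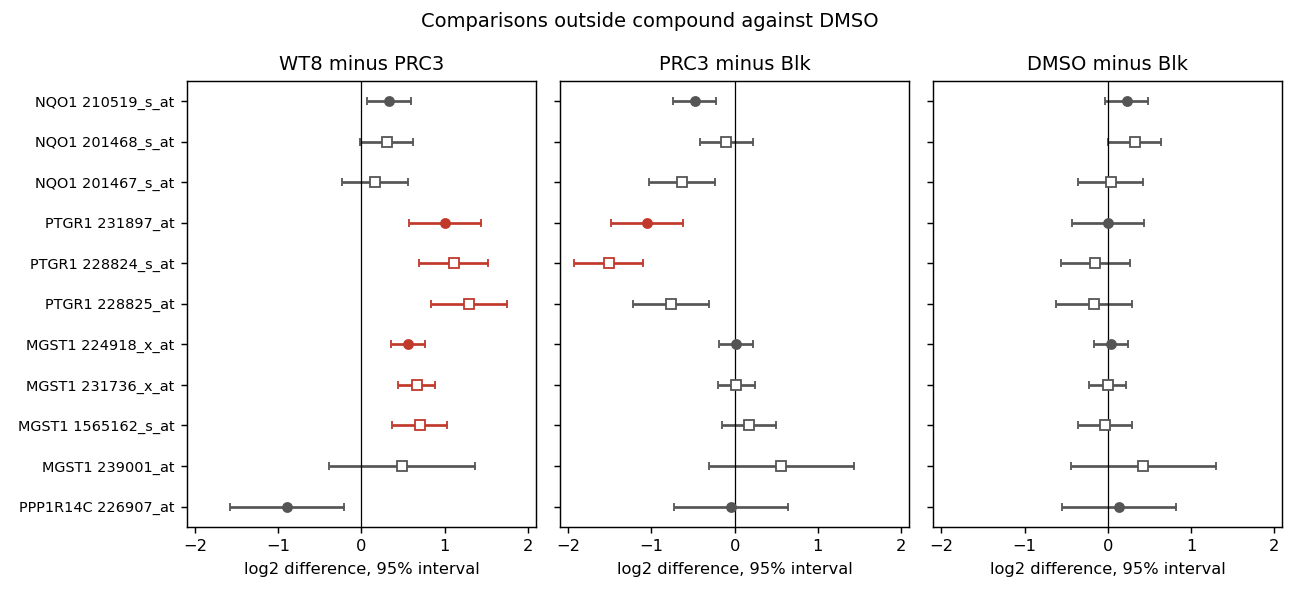
Log2 difference with 95% interval (horizontal axis) of each of the 11 kept probe sets (rows) for WT8 minus PRC3, PRC3 minus Blk and DMSO minus Blk, where filled circles are representative probe sets, open squares the others, and red marks a limma adjusted p below 0.05. All 3 probe sets of PTGR1 and 3 of the 4 of MGST1 are red in WT8 minus PRC3, 2 of PTGR1 are red in PRC3 minus Blk, and none is red in DMSO minus Blk.

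The order of the levels differed from gene to gene. For NQO1 the order of groups from high to low was 76, 41, 40, 77, DMSO, Blk, WT8 and PRC3. Arrays of neighbouring groups overlapped except between 41 and 40, between 77 and DMSO, and between DMSO and Blk. PTGR1 was ordered 41, 76, 77, 40, DMSO, Blk, WT8 and PRC3, with gaps between 76 and 77, between 40 and DMSO, and between WT8 and PRC3. MGST1 was ordered 76, 41, 40, 77, WT8, DMSO, PRC3 and Blk, with gaps between 41 and 40, between 40 and 77, and between WT8 and DMSO. Its WT8 mean of 2833 ± 179 lay beside the 2873 ± 215 with compound 77 (SD, n = 3 each), and the arrays of those groups overlapped. PPP1R14C, ordered by mean log2 signal, ran DMSO, Blk, PRC3, WT8, 76, 40, 77 and 41, and all neighbouring groups overlapped.

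The compounds were compared with each other for each gene, 6 pairs and 24 differences in all. The compound arrays also took part in the choice of the genes, against DMSO, so the p-values of these differences are not free of that choice. The doses of the compounds are not known here, so these are differences between treatments as given, and the compounds are known only by their numbers. Of the 24 differences 5 were called, 3 of PTGR1 and 2 of MGST1. PTGR1 was higher with compound 41 than with compound 40 by 1.19 on the log2 scale (SE 0.21, 95% interval 0.76 to 1.62, limma adjusted p = 0.00835), where 0.549% of genes were called higher. It was also higher with compound 76 than with compound 40, by 1.14 (95% interval 0.71 to 1.58, limma adjusted p = 0.0195), against 0.139% of genes. With compound 77 it was lower than with compound 41, at -0.94 (95% interval -1.37 to -0.50, limma adjusted p = 0.0415), against 0.423% of genes. In none of these 3 pairs did the arrays overlap. Compound 77 minus compound 76 was -0.89 (95% interval -1.33 to -0.46, limma adjusted p = 0.0580), without overlap and not called, while probe set 228825_at was called there at -1.53 (adjusted p = 4.37e-04, limma).

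Probe sets and single arrays bear on these PTGR1 differences. Both differences from compound 40 were called on all 3 probe sets of PTGR1, where 0.591% of all probe sets were called for compound 41 and 0.126% for compound 76. The difference of compound 77 from compound 41 was called on 2 of 3, at -1.47 for 228825_at (adjusted p = 7.73e-04, limma), against 0.451% of all probe sets. Without compound 40 replicates 2 and 3, 1 array of compound 40 remains, its spread is taken from the other groups, and the differences kept their size without a call, at 1.19 (adjusted p = 0.189, limma) and 1.14 (adjusted p = 0.283, limma). The difference from compound 40 was also not called without compound 40 replicate 3 or compound 41 replicate 3 for compound 41, nor without compound 40 replicate 3 or compound 76 replicate 2 or 3 for compound 76. The difference of compound 77 from compound 41 held its call only without compound 77 replicate 2 among the 6 fits that left out 1 array, and was -0.69 (adjusted p = 0.264, limma) without compound 77 replicate 1.

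MGST1 was lower with compound 77 than with compound 76 by a log2 difference of -0.53 (SE 0.098, 95% interval -0.73 to -0.32, limma adjusted p = 0.00862), where 0.476% of genes were called lower. It was lower with compound 77 than with compound 41 by -0.49 (95% interval -0.69 to -0.29, limma adjusted p = 0.0166). Probe set 231736_x_at was called in both pairs, at -0.51 and -0.49, where 0.474% of all probe sets were called for compound 76. Probe sets 1565162_s_at, at -0.59 and -0.56, and the dim 239001_at, at -1.28 and -1.65, were called in neither. The call against compound 76 was lost without compound 76 replicate 3 or compound 77 replicate 1, at -0.50 and -0.47. That against compound 41 was lost without compound 41 replicate 1 or 3 or compound 77 replicate 1 or 3, at values from -0.50 to -0.43. Neither was called with the signals as deposited (limma adjusted p = 0.0616 for compound 76 and 0.0652 for compound 41) or with median scaling (limma adjusted p = 0.1003 and 0.0740).

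No pair was called for NQO1 or PPP1R14C. NQO1 was -0.51 with compound 77 minus compound 76 (95% interval -0.77 to -0.24, limma adjusted p = 0.0913) and -0.48 with compound 77 minus compound 41 (adjusted p = 0.120, limma), and its probe set 201468_s_at was called in both, at -0.75 and -0.69. For compounds 76 and 41, between which 0.152% of all genes were called, the differences were 0.029 for NQO1 (95% interval -0.23 to 0.29), -0.045 for PTGR1 (95% interval -0.48 to 0.39) and 0.035 for MGST1 (95% interval -0.17 to 0.24). A difference as large as the ends of these intervals is not excluded by them. For PPP1R14C the 6 differences ran from -0.22 to 0.41, with intervals that reached from -0.90 to 1.09. With 2 of 3 arrays at the floor for compounds 40, 41 and 77, the floor largely sets these values, and they do not measure how alike the compounds are.

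**Figure D4:**
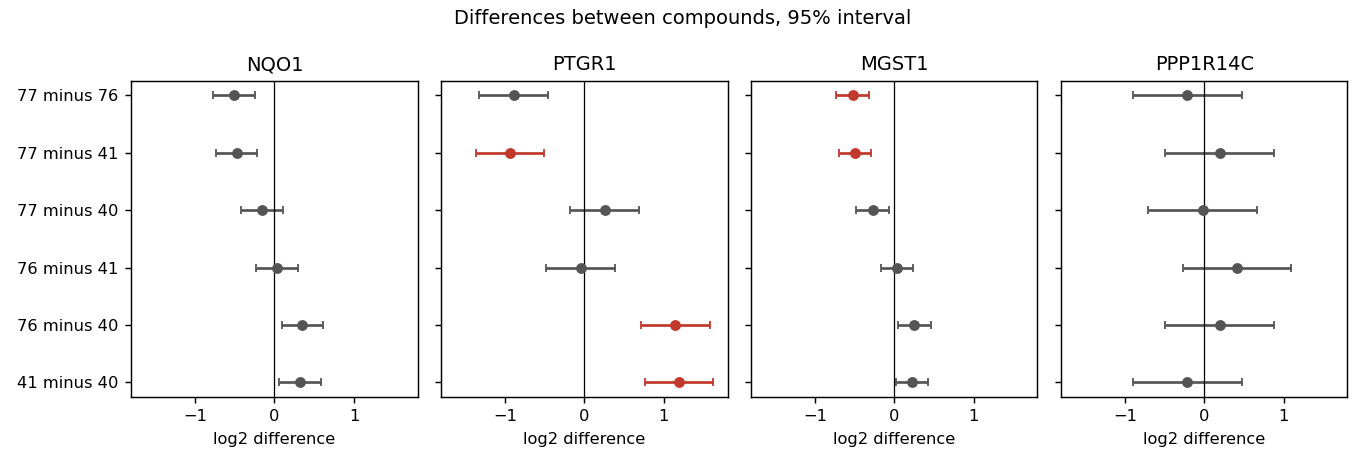
Log2 difference with 95% interval (horizontal axis) between each pair of compounds (rows) for the representative probe set of each gene, where red marks a limma adjusted p below 0.05 over all probe sets. The 5 red differences are 77 minus 41, 76 minus 40 and 41 minus 40 for PTGR1, and 77 minus 76 and 77 minus 41 for MGST1.

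The other measured NRF2 targets of the list used here rose with compounds 40, 41 and 76 in most cases and were not called with compound 77. A list of 32 textbook NRF2 target genes had 30 measured, 28 without NQO1 and PTGR1. FTH1, on the list, was not measured. FTH1P5, whose probe set may also read FTH1, was called higher with all 4 compounds, by 0.67 with compound 77. Of those 28, 16 rose with compound 40, 20 with compound 41 and 19 with compound 76, and none fell, where 0.436%, 1.71% and 1.02% of all genes were called higher. With compound 77 none of the 28 was called, against 0.139% of all genes called higher. NQO1 and PTGR1, chosen for moving the same way with all 4 compounds, were thus the only 2 of the 30. Leaving out compound 77 replicate 1 made 1 of the 28, AKR1B10, called with compound 77. The count with compound 40 was less stable, at 8 without compound 40 replicate 2 or without DMSO replicate 2, 10 without DMSO replicate 1 and 3 with 1 array of compound 40, while that with compound 41 stayed between 17 and 20 and that with compound 76 between 19 and 20. The median log2 difference of the 28 was 0.78, 1.20, 1.31 and 0.16 with compounds 40, 41, 76 and 77, while the median of all genes was 0, 0.013, 0.0060 and 0.

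HMOX1, heme oxygenase 1, is among the genes of the list with the largest contrast in signal. Its mean was 843.8 ± 350 with compound 40, 2684 ± 839 with compound 41, 2685 ± 998 with compound 76 and 110.1 ± 18.8 with compound 77, against 90.7 ± 16.7 with DMSO (SD, n = 3 each). With compound 77 it was therefore near DMSO, at a log2 difference of 0.28. NQO1 and PTGR1, chosen for a difference with every compound, differed by 1.17 and 1.50. AKR1C3, an aldo-keto reductase, averaged 1129 ± 79.0, 2336 ± 458, 2550 ± 667 and 90.5 ± 13.3 with compounds 40, 41, 76 and 77, against 121 ± 33.0 with DMSO. AKR1B10, another aldo-keto reductase, had log2 differences of 3.89, 4.55 and 4.95 with compounds 40, 41 and 76, all called. With compound 77 AKR1B10 averaged 399 ± 272 against 156 ± 63.4 with DMSO, at a log2 difference of 1.06 that was not called. The gap was smaller for other genes of the list, such as CBR1, at 1.17, 1.15, 1.27 and 0.78 with compounds 40, 41, 76 and 77, the last not called.

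The tests between compounds give the size of these gaps. Of the 28 genes 16 were lower with compound 77 than with compound 76, 15 than with compound 41 and 12 than with compound 40, and none was higher, with medians of -1.07, -0.88 and -0.73. The shares of all genes called lower in those pairs were 0.476%, 0.423% and 0.264%. HMOX1 differed by -4.58 (SE 0.27, limma adjusted p = 6.84e-10) and AKR1C3 by -4.68 (SE 0.45, adjusted p = 1.48e-06, limma) between compounds 77 and 41, against -0.48 for NQO1 and -0.94 for PTGR1 in the same pair. NQO1 and PTGR1 were chosen for being higher with compound 77 too, so a smaller gap for them is partly built into the choice. The differences between those genes and HMOX1 or AKR1C3 in 1 pair were not tested.

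**Figure D5:**
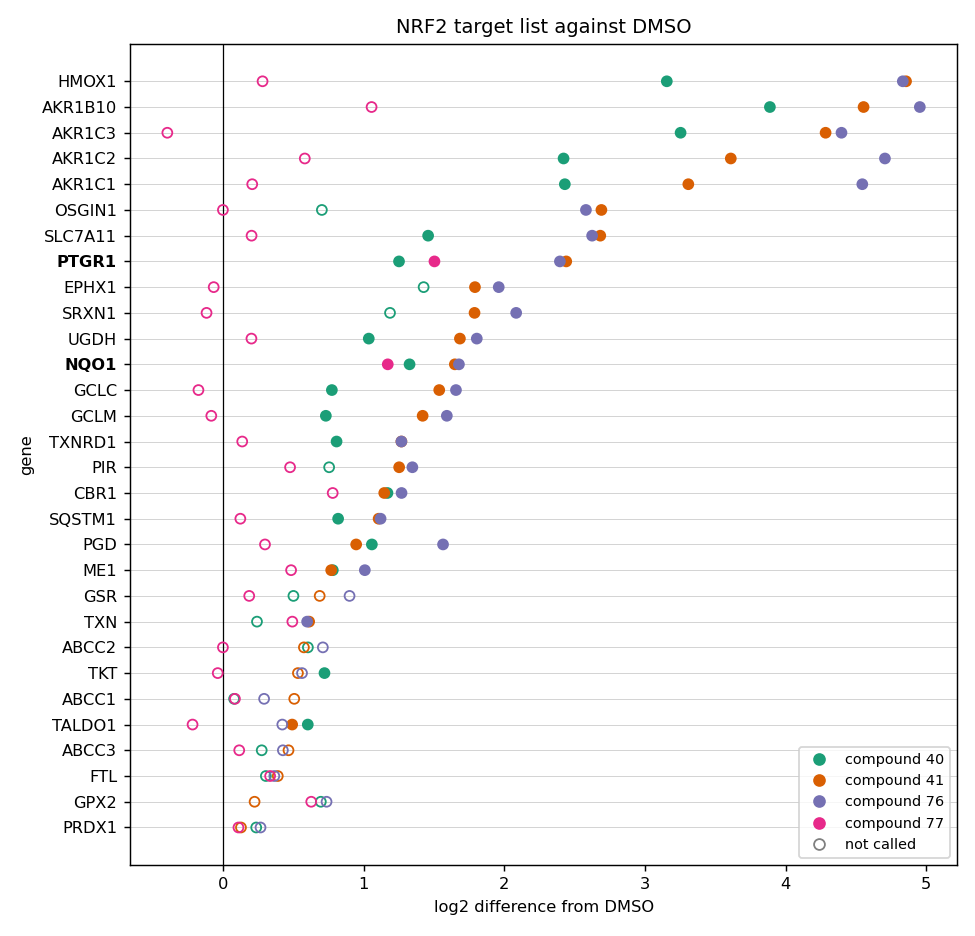
Log2 difference from DMSO (horizontal axis) of the 30 measured genes of the NRF2 target list (rows, ordered by size), with 1 point per compound, filled where the limma adjusted p was below 0.05 and open where not. With compound 77 the only filled points are NQO1 and PTGR1, at 1.17 and 1.50, both chosen for a difference with every compound. HMOX1 reaches 4.86 with compound 41 and lies at 0.28 with compound 77.

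Of the 7 regulators of NRF2 measured, 2 were called higher with compounds 41 and 76, where 1.71% and 1.02% of all genes were. NFE2L2 itself differed from DMSO by 0.17, 0.15, 0.16 and 0.24 with compounds 40, 41, 76 and 77, none called. KEAP1 rose with compound 41, by 0.65 (adjusted p = 0.0170, limma), and with compound 76, by 0.79 (adjusted p = 0.00502, limma). MAFG, a small MAF partner, rose with the same compounds by 1.05 and 1.11. Without 1 array of the compounds or DMSO the count with compound 41 ran from 0, without DMSO replicate 1 or compound 41 replicate 2 or 3, to 2, and that with compound 76 from 1 to 2, where KEAP1 stayed called. NFE2L1, a relative of NFE2L2, was called lower in WT8 than in PRC3, at -0.82 (adjusted p = 0.0216, limma), and the other 4 in none of these comparisons. Between WT8 and PRC3 the NRF2 target list without NQO1 and PTGR1 had 3 genes called higher and none lower, where 3.27% of all genes were called higher, at a median of 0.36 beside 0.0099 for all genes. They were AKR1C3 (2.07, SE 0.45, limma adjusted p = 0.00653), CBR1 (0.85, adjusted p = 0.0348, limma) and GCLM, the modifier subunit of glutamate cysteine ligase (0.49, adjusted p = 0.0105, limma).

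Relatives of NQO1 by activity were called in part. Of 7 other quinone and carbonyl reductases, 3 rose with compound 40 and 4 each with compounds 41 and 76, and none was called with compound 77, against 0.436%, 1.71%, 1.02% and 0.139% of all genes higher with compounds 40, 41, 76 and 77. The count with compound 40 was 0 without compound 40 replicate 2, 0 without DMSO replicate 1 and 1 without DMSO replicate 2. With compound 41 it was 2 without DMSO replicate 1 or compound 41 replicate 3, and with compound 76 it was 2 without DMSO replicate 1 or 2 or compound 76 replicate 2 or 3. Without compound 77 replicate 1, NQO2 was called with compound 77. CBR1, carbonyl reductase 1, had log2 differences of 1.17, 1.15, 1.27 and 0.78 with compounds 40, 41, 76 and 77, the last not called. TXNRD1, thioredoxin reductase 1, had 0.81, 1.27, 1.27 and 0.14, and POR, cytochrome P450 reductase, 0.68, 0.74, 0.69 and 0.37, again with the last not called. NQO2, the nearest relative of NQO1, had 0.61, 0.68, 0.75 and 0.44, of which those with compounds 41 and 76 were called. CBR3, CRYZ and CYB5R3 were not called with any compound.

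Of 15 other measured genes of prostaglandin and leukotriene handling, none was called with any compound. Since 0.846%, 3.34%, 1.78% and 0.179% of all genes were called with compounds 40, 41, 76 and 77, lists of this size with 0 or 1 call are near the background, here and in the families below. PTGES, the inducible prostaglandin E synthase, had log2 differences of -1.03, -1.33, -1.21 and -0.91 with compounds 40, 41, 76 and 77, and ALOX5AP, which presents arachidonate to 5-lipoxygenase, -0.85, -1.21, -1.05 and -0.28. Both belong to the membrane-bound family of MGST1, of which 5 other members were measured and none was called. MGST3 had 0.59, 0.21, 0.25 and 0.34, and MGST2 had -0.15, 0.60, -0.19 and -0.29. Among 13 soluble glutathione transferases GSTM3 was called, higher with compound 41 by 1.95 (adjusted p = 3.22e-04, limma), and no other was called with any compound. GSTP1 had -0.045, 0.36, 0.056 and 0.022.

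Neither measured relative of PPP1R14C was called with any compound. PPP1R14B, a ubiquitous relative, had log2 differences of -0.13, -0.048, -0.18 and -0.0065 with compounds 40, 41, 76 and 77, and PPP1R14D, at signals near 34.6 with DMSO, 0.31, 0.20, 0.20 and -0.10. Of 11 other measured subunits and inhibitors of protein phosphatase 1 and myosin phosphatase, PPP1R11 with compound 41 was the only call, at 0.46 (adjusted p = 0.0421, limma), near the 3.34% of all genes called there and lost without any 1 array of compound 41 or DMSO. The catalytic subunits PPP1CA, PPP1CB and PPP1CC were not called with any compound.

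The 3 enzymes varied together over the arrays. Over the 24 arrays of the 8 groups the Pearson correlation of log2 signals was 0.964 between NQO1 and PTGR1, 0.860 between NQO1 and MGST1 and 0.883 between PTGR1 and MGST1. That of PPP1R14C was -0.766 with NQO1, -0.741 with PTGR1 and -0.817 with MGST1. These describe 24 arrays in groups that the choice itself separates. Between probe sets of the same gene it ran from 0.954 to 0.993 for NQO1, from 0.903 to 0.987 for PTGR1 and from 0.759 to 0.992 for MGST1, lowest for the dim probe set.

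Of all genes, those most like NQO1 over these arrays were PTGR1, FTH1P5 (0.955), NQO2 (0.933), RNF14 (0.929) and ALDH3A2 (0.926). For PTGR1 they were NQO1, FTH1P5 (0.938), ASPH (0.928), PIR (0.921) and ALDH3A2 (0.920). For MGST1 they were FTH1P5 (0.931), ASPH (0.919), ME1 (0.906), NRCAM (0.898) and NMRAL2P (0.895), of which NRCAM was at the floor on 10 arrays. PPP1R14C had its closest correlations with PCLAF (0.844), CENPU (0.836), RIF1 (0.831), SMC4 (0.825) and KIF15 (0.824). PPP1R14C itself was at the floor on 7 of the 24 arrays, and these correlations too span groups that the choice separates. PCLAF binds the replication clamp PCNA, CENPU is a centromere protein, SMC4 a condensin subunit and KIF15 a mitotic kinesin.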

How the data were processed

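The authors deposited linear signal intensities of 26 Affymetrix U133 Plus 2.0 arrays, made with MAS5 per the submitters' processing notes. The labels name a floor of 20 and a ceiling of 16000, and the deposited table still holds values below 20. Without 62 control probe sets, the signals of the 26 arrays were quantile normalised, bounded at 20 and 16000, and converted to log2. A probe set was kept if it reached the median of its array on 3 or more of the 24 arrays in groups of 3, which left 35013 of 54613. Signals printed per array are normalised values before the floor. The floor held 16.7% to 20.8% of the kept values per array, and the number of arrays limits the precision.

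Genes were named from the platform annotation through RefSeq (GRCh38.p14), and 41037 of 41091 single-gene probe sets were found there. The probe set brightest on average over the 24 arrays, among those with 1 gene, stood for each of 15124 genes. Limma 3.58.1 in R 4.3.3 (lmFit, eBayes with a trend) fitted the 24 arrays together with 16 residual degrees of freedom. A Benjamini-Hochberg adjusted p below 0.05 over the 35013 probe sets was called. SE and intervals are those of the log2 difference. The fit was tested on simulated data. The genes and lists were chosen with earlier results of these data known. The named genes were the 4 genes, their families, up to 4 called members of each other list per comparison with the largest change, the 5 genes most correlated with each of the 4, and the 3 nearest the rule's threshold on either side. Alternatives were the signals as deposited, scaling to 1 median, log2 of signal plus a pseudocount of 20, no filter, the replicate number as a block, the compared groups alone and leaving out each array.

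The replicate numbers come from the titles. Deviations from the group means of same-numbered arrays correlated between -0.067 and 0.457 over 84 pairs, with a median of 0.122, against a median of -0.066 for 168 other pairs. Deviations within a group cancel out, so positive same-numbered pairs push the other pairs down. Every pair was over 0.1 for WT8 and PRC3 (0.457, 0.107 and 0.346), DMSO and Blk (0.293, 0.207 and 0.146), compounds 41 and 76 with DMSO, and compounds 76 and 41. Other groups had some pairs over 0.1 too, and that cut does not show them to be unpaired. No other columns of per-sample values were left aside.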

Additional observations from a re-analysis of the deposited data

Results flagged for a closer look

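Between compounds, 5 differences of PTGR1 and MGST1 passed the limma test of the difference itself. The arrays of the compounds also served to choose these genes, against DMSO, so these tests are not independent of the choice. PTGR1 differed by 1.19 (log2) between compounds 41 and 40, by 1.14 between compounds 76 and 40 and by -0.94 between compounds 77 and 41. MGST1 differed by -0.53 between compounds 77 and 76 and by -0.49 between compounds 77 and 41. The shares of all genes called in the same direction were 0.549%, 0.139% and 0.423% for these PTGR1 pairs, and 0.476% and 0.423% for those of MGST1. In each of the 5 the arrays of the compounds did not overlap, and how many of all genes separate in this way was not counted. Each of the 5 lost its call when the compared groups were fitted alone, and both of MGST1 lost it with median scaling or with signals as deposited. The doses and times of the compounds are not known here, and whether they were matched was not tested.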

How the results depend on the processing

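Over all settings of the log2 differences of the 4 genes, 372 values kept their direction and side of the threshold, 30 that were called in neither fit changed sign, at sizes of at most 0.30, 36 lost a call, 6 gained one and no called value turned its direction. The count of genes meeting the rule, 6 here, was 10 when DMSO and the compounds were fitted alone, 3 with median scaling, 23 with the replicate block, and 3 when compound 40 was left without replicates 2 and 3, an alternative chosen after seeing the data. Leaving out 1 array gave 3 to 14, 14 without compound 77 replicate 1 and 3 without compound 77 replicate 2 or 3. MGST1 left the rule with signals as deposited, with median scaling and without compound 77 replicate 2 or 3 or DMSO replicate 2 or 3. The 5 called pair differences became 3 without the 2 compound 40 columns, 3 without the filter and 0 for the groups alone, and 2 to 6 without 1 array; both MGST1 differences lost their call with median scaling and with signals as deposited, and the fewest, 2, came without compound 41 replicate 3, compound 76 replicate 3 or compound 77 replicate 1. PRC3 against Blk gave 1 call (PTGR1), 0 with the groups alone, 2 with the replicate block (NQO1 added, limma adjusted p = 0.0432) and 0 to 2 without 1 array. WT8 against PRC3 gave 2 calls, 0 with the groups alone, 1 with median scaling and 2 to 2 without 1 array. The groups alone leave fewer arrays to estimate the spread; the cause of the other changes was not tested. DMSO against Blk gave 0 calls in every setting. The counts of the gene lists without 1 array, given in the text, were added after seeing the data. For the groups with every same-numbered pair over 0.1, the replicate block changed no call of the 4 genes outside the choice.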

Other observations

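The single arrays pTR and pTV, for which the labels give no condition, were also read for the 4 genes. PPP1R14C had a signal of 15.3 on pTR, under the floor of 20, and 70.0 on pTV. The floored log2 difference of -1.81 was matched or passed in size by 1.91% of genes. PTGR1 had 912.8 on pTR and 550.2 on pTV, a log2 difference of 0.73 that 22.2% of genes matched or passed. NQO1 had 1183 and 1440, and MGST1 2260 and 2249, in the same order, differences that 57.7% and 92.1% of genes matched or passed in size. With 1 array each there was no test and no replicate check.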
